A study of Saccharomyces cerevisiae SK1 with 8 samples.

Results

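The large subunit of the yeast mitochondrial ribosome was followed through 39 of its protein genes. They are the genes named MRPL together with RML2, MRP7, MRP20, IMG1 and IMG2, chosen by gene identifier. The files list 6663 genes, and all 39 were found and passed the filter on low counts. The rule uses no measured value. They lie on 13 of the 16 nuclear chromosomes, each listed in the files as a single exon of 213 to 1182 bases.

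The mitochondrial ribosome makes the few proteins that the mitochondrial genome encodes, which are mostly core subunits of the respiratory chain and of ATP synthase. Its RNAs are made inside the organelle, but nearly all of its proteins are encoded in the nucleus, translated in the cytosol and imported. The large subunit holds the peptidyl transferase centre, the tunnel through which the new chain leaves, a stalk that binds translation factors, and the central protuberance on top. Part of its proteins descend from bacterial ribosomal proteins, and others were added in mitochondria.

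The study switched on a truncated isoform of Pus1, a pseudouridine synthase that modifies tRNAs and other RNAs, in diploid SK1 budding yeast (MATa/alpha). Polyadenylated RNA was sequenced from 8 cultures, 2 biological replicates in each of 4 groups, taken 3 h after dilution from overnight cultures in YEPD, a rich glucose medium, at 30 °C. The pus1::KanMX deletion received anhydrotetracycline (aTC, the inducer) or DMSO (the solvent) at dilution, and so did the strain that keeps native PUS1, called wild type here. Every strain carried the V5-tagged isoform construct (altPus1-3V5) behind the pTetO7.1 promoter at his3. At ura3 every strain carried TetR-Tup1 driven by pRNR2 and TetR driven by pTetO7.1. No group received aTC without the construct, so the inducer and the isoform cannot be told apart. Tetracyclines as a class are known to inhibit bacterial ribosomes and can also inhibit translation in mitochondria. Translation was not measured here, so whether aTC had such an effect was not tested.

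Libraries held 51331492 to 61960514 counted reads. The PUS1 row, which also takes reads of the induced isoform, had 771 and 905 CPM (counts brought to a common library size, with TMM scaling between libraries) in the deletion with aTC and 0.0382 and 0.0654 CPM in the deletion with DMSO, which is 2 and 4 reads. It had 1124 and 1078 CPM in wild type with aTC and 221 and 216 CPM in wild type with DMSO. These values fit the labels of all 8 libraries. Of 17 genes that a MATa/alpha diploid represses, none exceeded 34.7 CPM (FAR1) in any library. STE6 reached 23.9 CPM, STE5 22.0, HO 11.5 and STE2 9.14, and the rest stayed at or under 6.10 CPM (BAR1). MFA1, MF(ALPHA)1, STE3, FUS3 and RME1 stayed under 1 CPM. No haploid culture was sequenced for comparison. The 9 haploid-specific genes summed to 86.1 ± 2.82 CPM in the deletion with aTC, 81.6 ± 2.67 in the deletion with DMSO, 72.4 ± 6.33 in wild type with aTC and 72.2 ± 1.77 in wild type with DMSO (SD, n = 2 each). A CPM is a share of all counted RNA, so fewer cells with a transcript and less of it in each cell cannot be told apart.

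All 39 members share a sequence feature just behind the coding region. Puf3 is an RNA-binding protein of this species that is known to bind mRNAs for mitochondrial ribosomal proteins and to promote their decay in glucose. Its motif, TGTANATA on the coding strand, was searched in the 200 bases after each stop codon of the S288C reference genome R64 (RefSeq). SK1, the strain used, differs from S288C, and its own sequence was not used here. The motif was present in 39 of 39 members (100%), in 31 of 32 small subunit genes (96.9%) and in 841 of 5921 genes searched (14.2%). The longer form, which also has a C at the second base before the motif and is a subset of those matches, was present in 33 of 39 members (84.6%), 23 of 32 small subunit genes (71.9%) and 253 of 5921 genes (4.27%).

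The 30-base windows that follow, one site per line in the direction of transcription with the motif in capitals, show the 6 members on which the results below turn, and both sites of MRPL3, which hold 2 different forms of the motif.
RML2 (YEL050C) chrV:59531-59560, minus strand: gtccacaatcaTGTAAATAtaaatattgaa
MRPL50 (YNR022C) chrXIV:669719-669748, minus strand: gcgtacaatctTGTATATAggcaacatcgc
MRPL17 (YNL252C) chrXIV:171334-171363, minus strand: cgtcaatcacaTGTAAATAtcattaaatga
MRPL31 (YKL138C) chrXI:185225-185254, minus strand: aaaatttcatcTGTATATAgtttaatcatt
MRPL15 (YLR312W-A) chrXII:760291-760320, plus strand: aaaaatttatcTGTAAATAgtgatcgaaat
MRPL3 (YMR024W), first site, chrXIII:323054-323083, plus strand: gtttgccatttTGTAGATAgagaactcctt
MRPL3 (YMR024W), second site, chrXIII:323089-323118, plus strand: gaatacattctTGTACATAtatatatacac

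The members held 47 such sites. TGTAAATA and TGTATATA occurred 18 times each, TGTACATA 10 times and TGTAGATA once, in MRPL3. There was 1 site in 31 members and there were 2 in the other 8. The nearest site began 13 to 136 bases after the stop codon (median 48), and in 35 members it began within 100 bases. The RML2 site lay 121 bases after the stop codon, farther than in every other member but MRPL22 (136).

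**Figure D1:**
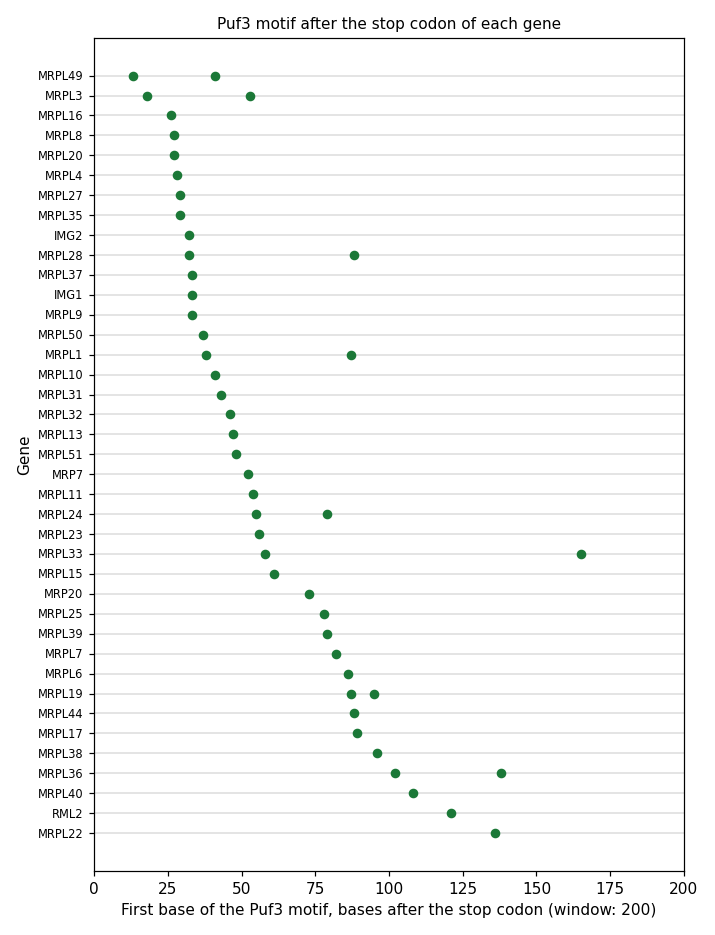
Position of each Puf3 motif (TGTANATA, coding strand of R64) in the 200 bases after the stop codon of the 39 genes, in bases after the stop codon. Each point is 1 site, and genes are ordered by their nearest site, from 13 bases in MRPL49 to 136 bases in MRPL22.

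Per length, 38 of the 39 genes lay within 4.69-fold of one another, between 34.8 and 163 CPM per kb of gene (median 88.0, means over 8 libraries). The low end rests on MRPL44 and MRPL51, whose countable lengths are uncertain for the reasons given below, so this spread is uncertain too. The highest were MRP7 (YNL005C) at 163, which sits close to the peptidyl transferase centre, MRPL3 at 152, a protein with an RNase III fold, and MRPL22 (YNL177C) at 122, which lines the exit tunnel. In percentiles of all genes tested, MRP7 stood at 84.4 and MRPL3 at 83.2. MRP7 had 162 ± 5.5 CPM per kb in the deletion with aTC, 171 ± 5.8 in the deletion with DMSO, 159 ± 3.2 in wild type with aTC and 162 ± 2.2 in wild type with DMSO (SD, n = 2 each).

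The lowest level per length belonged to MRPL38 (YKL170W), the uL14 homologue, at 0.653 CPM per kb, with 6 to 23 reads in a library. Of its 417 bases, 366 overlap YKL169C on the opposite strand, and reads in such an overlap were not counted for either gene, so its values stand for the other 51 bases. MRPL51, at 37.6 CPM per kb, likewise shares 323 of its bases with YPR099C. MRPL44, at 34.8 CPM per kb, is counted over 444 bases, which is 147 more than the coding length in R64, where the gene has 2 coding exons. Its level per length depends on which length is used. MRPL9 shares 303 bases with YGR219W and MRPL19 shares 113 with YNL184C, and both are uncertain to that extent. RML2 shares 71 of its 1182 bases with YEL050W-A.

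Between libraries the levels were even. Leaving out MRPL38, the highest library exceeded the lowest by at most 1.56-fold (MRPL24), with a median of 1.21-fold, and every member had at least 714 reads in each library. The summed level of the 39 members was 2245 ± 7.95 CPM in the deletion with aTC, 2359 ± 106 in the deletion with DMSO, 2320 ± 40.1 in wild type with aTC and 2232 ± 63.7 in wild type with DMSO (SD, n = 2 each). The order of groups for single genes was uneven: the deletion with DMSO had the highest group mean for 25 of the 39 members, and the deletion with aTC had the lowest for 22. Scaled by library totals alone, the summed level was 2310 CPM in the deletion with aTC, 2402 in the deletion with DMSO, 2287 in wild type with aTC and 2162 in wild type with DMSO, which turns round the order of the aTC groups.

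**Figure D2:**
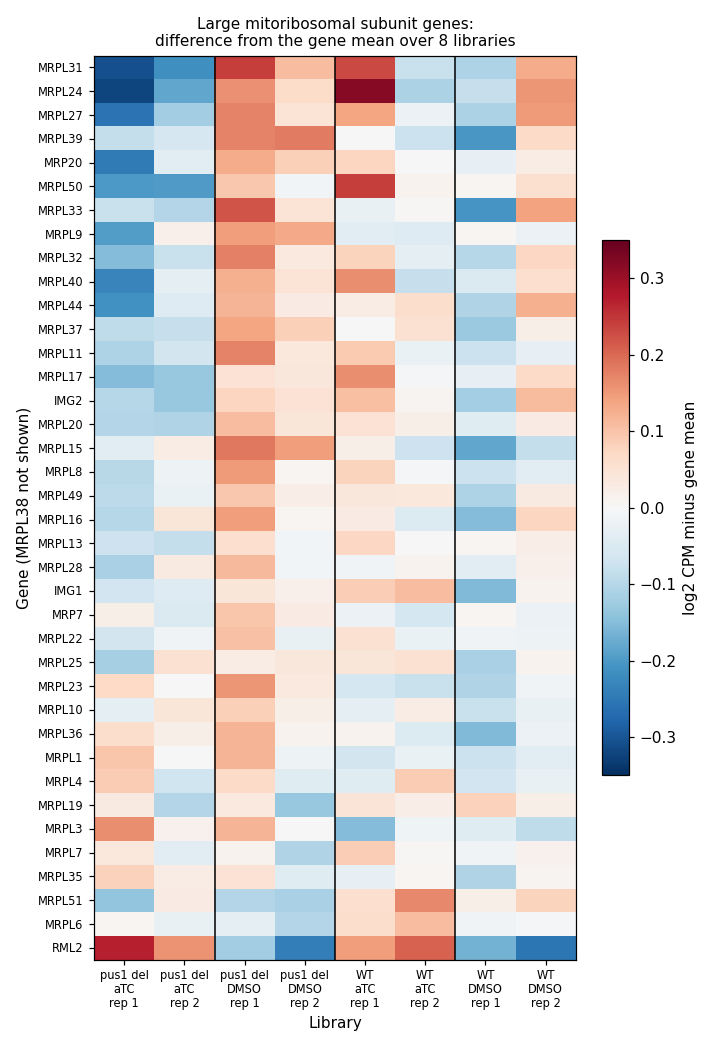
Difference of each gene's log2 CPM in each of the 8 libraries from that gene's mean over the libraries, for 38 genes (MRPL38 is not shown). Rows are ordered by the response to aTC in the deletion, and RML2 in the bottom row is high in the 4 aTC libraries and low in the 4 DMSO libraries.

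With aTC in the deletion, most members lay slightly lower than with DMSO, and 1 member rose. RML2, the mitochondrial uL2 protein of the peptidyl transferase region, was the one called by edgeR's quasi-likelihood test at a Benjamini-Hochberg adjusted p under 0.05. It was 1 of 39 members, while 0.506% of the 5932 genes tested were called, 0.354% higher and 0.152% lower. The log2 fold change was below 0 for 32 of 39 members (82.1%), against 48.9% of all genes tested, with a median of -0.12 over members and 0.0038 over all genes. Without the second aTC library of the deletion the median was -0.18, and without its first DMSO library -0.07. At an unadjusted p under 0.05, 15 members were lower (12.1% of all genes) and 1 was higher (10.5% of all genes). The libraries of both groups did not overlap for 23 lower members (28.7% of all genes) and 2 higher members (29.8% of all genes). Members of 1 library share its culture and preparation, so counts of members by direction, here and below, are descriptions. The median over members also differed between replicates. The first minus the second was at -0.022 in the deletion with aTC and 0.094 with DMSO. In wild type it was at 0.031 with aTC and -0.093 with DMSO.

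RML2 had 135 and 125 CPM in the deletion with aTC, against 103 and 94.6 CPM in the deletion with DMSO. Both aTC libraries were above both DMSO libraries. The log2 fold change was 0.40 (SE 0.065), with an edgeR adjusted p of 0.0234. Without one of the 4 deletion libraries the log2 value stayed between 0.34 and 0.46, but the edgeR adjusted p ran from 0.0506 to 0.356, and the gene was no longer called.

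MRPL31, a mitochondria-specific protein known as mL60, showed the largest difference downward among the well-counted members. It had 30.1 and 32.0 CPM in the deletion with aTC, against 43.9 and 40.05 CPM in the deletion with DMSO. The groups did not overlap, and the log2 fold change of -0.44 (SE 0.11) had an edgeR adjusted p of 0.0749, short of the threshold. MRPL24, the bL28 homologue, had 31.2 and 34.4 CPM in the deletion with aTC, against 43.5 and 40.8 CPM in the deletion with DMSO. Its groups did not overlap either, and its log2 fold change of -0.36 (SE 0.12) had an edgeR adjusted p of 0.132.

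MRPL38 had 14 and 6 reads in the deletion with aTC, against 19 and 19 in the deletion with DMSO, too few to place a log2 fold change of -0.91 (SE 0.50) away from 0. The next highest members after RML2 were MRPL6 (uL6 homologue) at 0.058 (SE 0.056) and MRPL51 (mL43) at 0.054 (SE 0.084), with edgeR adjusted p-values of 0.571 and 0.733. DESeq2 called MRP20, MRPL24, MRPL27 and MRPL31 lower as well, so its count was 5 against 1 by edgeR. Without either wild-type aTC library, edgeR called 6 members in this comparison, RML2 higher and MRP20, MRPL17, MRPL24, MRPL31 and MRPL50 lower.

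By role, the pattern in the deletion was spread over the subunit. Around the peptidyl transferase centre the log2 fold changes were 0.40 for RML2, -0.22 for MRPL9, -0.10 for MRPL16 and -0.08 for MRP7. Of the tunnel proteins, MRP20, the uL23 homologue at the exit, was at -0.24, MRPL40 at -0.21, MRPL22 at -0.08 and MRPL4 at -0.00. At the stalks, MRPL11 was at -0.19, MRPL1 at -0.00 and MRPL19 at 0.01. In the central protuberance MRPL17 was at -0.19 and MRPL28 at -0.09, and MRPL35 and MRPL7 were at 0.05. The median was -0.17 over the 14 mitochondria-specific members and -0.10 over the 25 of bacterial type. Of the proteins placed here, RML2 alone passed the edgeR test, and DESeq2 also called MRP20. Members with 1 Puf3 site (31 genes) had a median of -0.17 and those with 2 (8 genes) one of -0.06.

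In wild type with aTC, RML2 was again the member that rose. RML2 had 124 and 129 CPM with aTC, against 99.95 and 93.9 CPM with DMSO. The groups did not overlap, and the log2 fold change was 0.38 (SE 0.065) with an edgeR adjusted p of 0.0318. RML2 was the 1 member called, while 0.371% of all genes were called, 0.253% higher and 0.118% lower. The edgeR adjusted p stayed under 0.05 without the first wild-type aTC library (0.0298), and ran from 0.0518 to 0.242 without any other single library. In a fit of the wild-type libraries alone it was 0.185.

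The rest of the members in wild type lay close to 0 on the log2 scale. The median was 0.042 over members and 0.011 over all genes, and 33 of 39 members were above 0, against 55.7% of all genes, and 6 below 0, against 44.3%. Without the first wild-type DMSO library the median was 0.0039, and without the second it was 0.12. Without the first wild-type aTC library it was 0.027, and without the second 0.064. The libraries did not overlap for 8 higher members (17.2% of all genes) and 2 lower members (13.3% of all genes). Before adjustment, 2 members were higher (2.07% of all genes) and 0 were lower (2.92%) at a p under 0.05. The second of the 2 was IMG1 (YCR046C), the bL19 homologue whose loss is known to destabilise mitochondrial DNA. IMG1 had 47.2 and 47.9 CPM with aTC, against 39.9 and 44.8 CPM with DMSO. Its log2 fold change of 0.17 (SE 0.067) had an edgeR adjusted p of 0.873. In wild type MRPL31 was at 0.070 (SE 0.11) and MRPL24 at 0.079 (SE 0.12).

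Averaged over the 2 strains, RML2 rose by 0.39 on the log2 scale (SE 0.046, edgeR adjusted p 0.00112), with all 4 aTC libraries above all 4 DMSO libraries. It was called without each of the 8 libraries in turn (log2 0.36 to 0.42). It was the 1 member called, while 1.31% of all genes were called, 0.775% higher and 0.539% lower. At an unadjusted p under 0.05, RML2 alone was higher (9.74% of all genes) and 2 members were lower (9.15%). The libraries did not overlap for RML2 on the high side (3.89% of all genes) and for 0 members on the low side (2.6%). Without the first wild-type aTC library, edgeR called MRPL24 and MRPL31 lower as well. The response of RML2 in the deletion minus that in wild type was 0.013 (SE 0.091, edgeR adjusted p 0.966). The nearest neighbours of RML2 on chromosome V, AFG1, VMA8, YEL050W-A, PAU2, TCA17 and FRD1, were not called for aTC in either strain. Their edgeR adjusted p-values ran from 0.0971 to 0.718 in the deletion and from 0.371 upward in wild type. YEL050W-A, which overlaps RML2, was at 0.23 in the deletion and 0.47 in wild type, with 361 to 652 reads. It lies across the stop codon end of RML2 on the opposite strand, and counting used no strand option. Reads of RML2 RNA beyond the stop codon therefore cannot be told apart from its own.

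**Figure D3:**
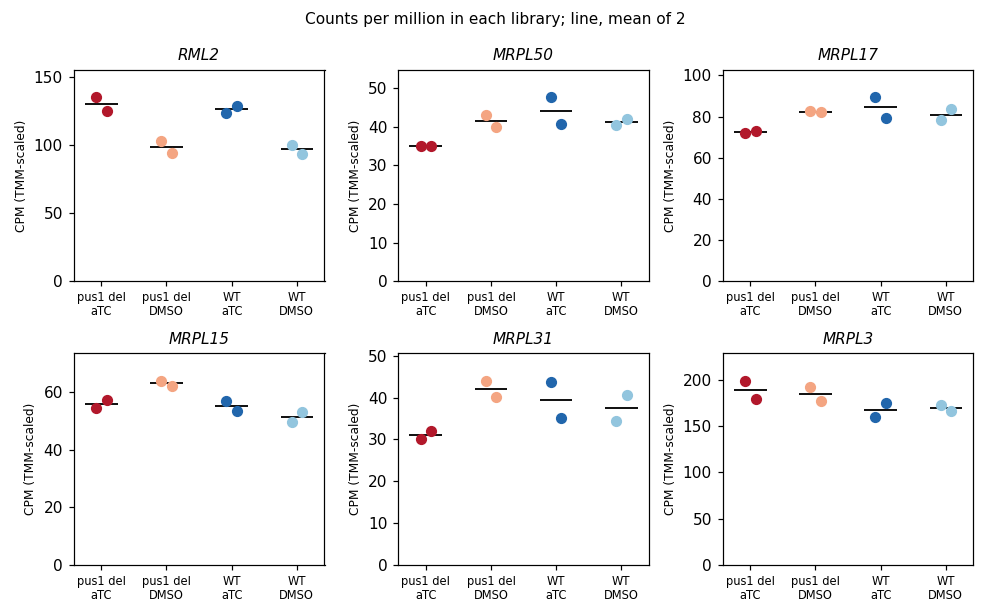
TMM-scaled CPM in each of the 8 libraries (points) and group means (lines, n = 2) for 6 genes, with axes from 0. RML2 is at 124 to 135 CPM in the aTC libraries and 93.9 to 103 CPM in the DMSO libraries of both strains, while MRPL31, MRPL50 and MRPL17 are lowest in the deletion with aTC.

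The response to aTC in the deletion lay below that in wild type for 34 of 39 members, against 49.2% of all genes. The median difference of the 2 log2 responses was -0.19 over members and 0.0034 over all genes. By edgeR 0 members passed the test of this difference, as 0% of all genes were called lower and 0.0169% higher. DESeq2 called 0 as well. At an unadjusted p under 0.05, 13 members were lower (5.18% of all genes) and 0 were higher (2.06%). Among the well-counted members the largest were MRPL31 at -0.51 (SE 0.15), MRPL24 at -0.44 (SE 0.18) and MRPL50 at -0.34 (SE 0.11), each with an edgeR adjusted p of 0.660. MRPL38, at -0.78 (SE 0.69), rests on few reads. Without the second wild-type aTC library, edgeR called MRPL24, MRPL31 and MRPL50 lower. The median moved to -0.26 without the second wild-type DMSO library and to -0.13 without the first.

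**Figure D4:**
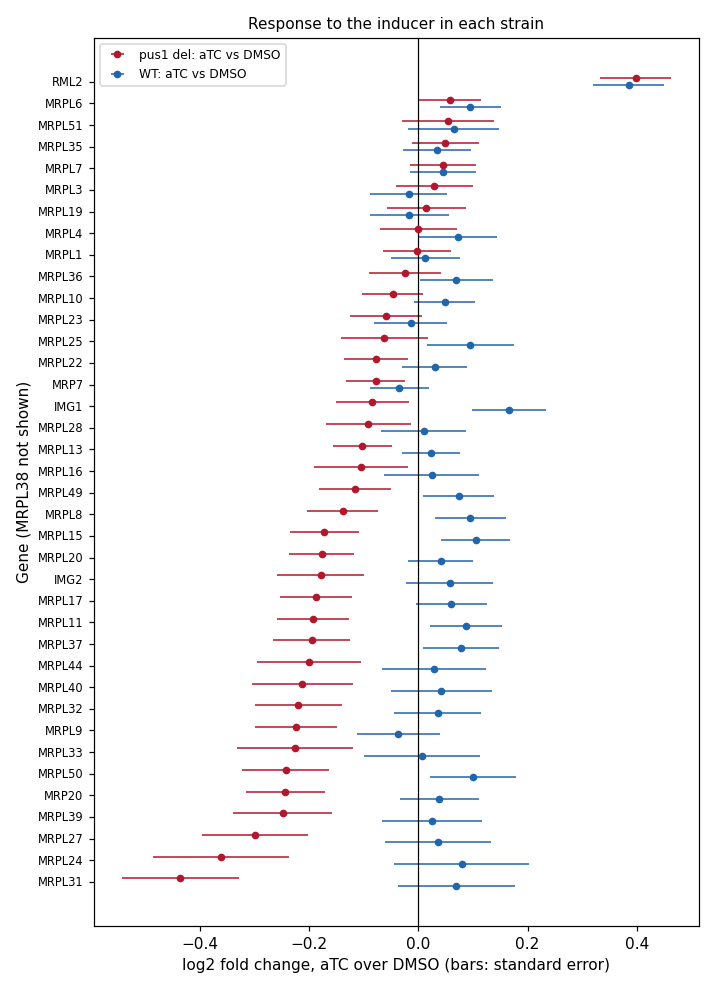
Log2 fold change of aTC over DMSO for 38 genes (MRPL38 is not shown) in the deletion (red, upper point of each pair) and in wild type (blue), with standard errors derived from edgeR's F statistic. RML2 is at 0.40 and 0.38, and most other genes lie left of 0 in the deletion and slightly right of 0 in wild type.

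The differences in the deletion went with gene length. Members up to 600 bases long (19 genes) had a median log2 fold change of -0.18, and longer ones (20 genes) one of -0.09. Over all genes tested the medians were -0.046 up to 600 bases and 0.014 above. Spearman's rho between length and response was 0.488 over the 39 members in the deletion and -0.023 in wild type. Over 5932 genes it was 0.121 and -0.018. Replicates of 1 group could differ along length too. The first minus the second wild-type DMSO library had a rho of 0.653 over the members and 0.276 over all genes. Genes of 1 library share its preparation, so these correlations are descriptions. With the trend over all genes removed, a choice made after seeing the data, the median was -0.08 in the deletion and 0.03 in wild type. The part of length in the differences was not tested further.

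**Figure D5:**
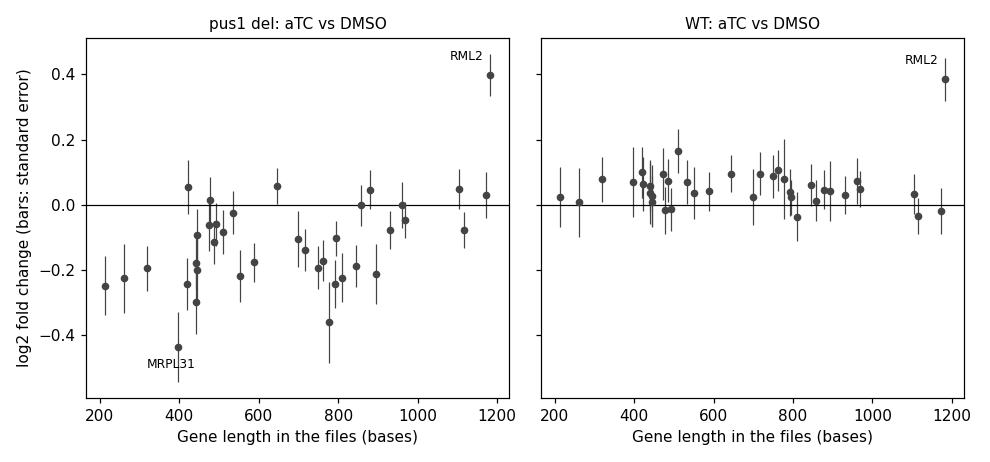
Log2 fold change of aTC over DMSO (standard errors derived from edgeR's F statistic) against gene length in bases for 38 genes (MRPL38 is not shown), in the deletion on the left and in wild type on the right. In the deletion the shorter genes lie lower, and the wild-type values show no such slope.

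With the construct off, most members had slightly higher values in the deletion than in wild type, and none passed the test. The median log2 difference of the deletion with DMSO from wild type with DMSO was 0.085 over members and 0.0015 over all genes, and 35 of 39 members were above 0, against 50.4% of all genes, and 4 below 0, against 49.6%. By edgeR 0 members were called, while 0.219% of all genes were, 0.135% higher and 0.0843% lower. At an unadjusted p under 0.05, 6 members were higher (8.85% of all genes) and 0 were lower (7.67%). The libraries did not overlap for 16 higher members (28.6% of all genes) and 2 lower ones (29.4% of all genes). Replicates of 1 group differed about as much as the strains did. The first minus the second replicate had a median over members of 0.094 in the deletion with DMSO and -0.093 in wild type with DMSO. Without the first wild-type DMSO library the median difference between strains was 0.027, and without the second it was 0.14. Without the first DMSO library of the deletion it was 0.048, and with the length trend removed 0.054.

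MRPL15, the mL57 protein that pairs with MRPL3 in the ribosome, had the largest difference upward. It had 63.7 and 62.1 CPM in the deletion with DMSO, against 49.5 and 53.0 CPM in wild type with DMSO. The groups did not overlap, and the log2 difference was 0.30 (SE 0.063) with an edgeR adjusted p of 0.0897. DESeq2 called it, as did edgeR without either wild-type aTC library. MRPL39 (bL33 homologue) followed at 0.24 (SE 0.091) and MRPL37 (mL54) at 0.16 (SE 0.070). On the low side were MRPL51 at -0.16 (SE 0.084), MRPL19 (uL11 homologue) at -0.10 (SE 0.072) and MRPL6 at -0.06 (SE 0.056).

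With the construct on, edgeR called 2 of the 39 members lower in the deletion than in wild type. This is a smaller share than among all genes, so the members as a set did not stand out by calls. Both MRPL50, the bL9 homologue, and MRPL17, the mL46 protein of the central protuberance, were called, while 13.6% of all genes were called, 8.13% lower and 5.5% higher. MRPL50 had 35.1 and 35.1 CPM in the deletion with aTC, against 47.7 and 40.6 CPM in wild type with aTC. MRPL17 had 71.9 and 72.8 CPM in the deletion with aTC, against 89.4 and 79.5 CPM in wild type with aTC. In both genes the groups did not overlap, and the first wild-type library was the highest. MRPL50 fell by 0.33 on the log2 scale (SE 0.079, edgeR adjusted p 0.0243) and MRPL17 fell by 0.22 (SE 0.065, edgeR adjusted p 0.0446).

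Without the first wild-type aTC library the log2 differences were -0.21 for MRPL50 and -0.14 for MRPL17, with edgeR adjusted p-values of 0.155 and 0.283. Without either aTC library of the deletion or the second DMSO library of the deletion neither gene was called, and without the first DMSO library of the deletion MRPL50 was called and MRPL17 was not. In a fit of the aTC libraries alone the edgeR adjusted p-values were 0.0511 for MRPL50 and 0.0974 for MRPL17. Without the second wild-type aTC library 7 members were called, MRPL3 higher and MRPL17, MRPL24, MRPL27, MRPL31, MRPL40 and MRPL50 lower. DESeq2 called MRPL24 and MRPL31 beside MRPL17 and MRPL50.

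Over the 39 members the median log2 difference of the deletion with aTC from wild type with aTC was -0.09, and 0.005 over all genes. There were 30 members below 0, against 49% of all genes. Before adjustment, 9 members were lower (17.2% of all genes) and 1 was higher (15.2%) at a p under 0.05. The libraries did not overlap for 19 lower members (27.9% of all genes) and 5 higher ones (30.9% of all genes). MRPL24 was at -0.37 (SE 0.12, edgeR adjusted p 0.0714) and MRPL31 at -0.35 (SE 0.11, edgeR adjusted p 0.0549). MRPL31 was called by edgeR without the filter on low counts and with the length trend removed (adjusted p 0.0372). The highest were MRPL3 at 0.17 (SE 0.070), MRPL23 (uL13 homologue) at 0.11 (SE 0.066) and MRPL1 (uL1 homologue) at 0.09 (SE 0.063), with edgeR adjusted p-values of 0.116, 0.289 and 0.326. MRPL3 had 199 and 179 CPM in the deletion with aTC, against 160 and 175 CPM in wild type with aTC. The groups did not overlap, by a narrow margin.

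Averaged over treatments, MRPL15 was the 1 of 39 members called between the strains, higher in the deletion by 0.16 (SE 0.045, edgeR adjusted p 0.0311). Of all genes 21.2% were called, 10% higher and 11.2% lower, so members were called less often than genes at large. The levels of MRPL15 with aTC were 54.5 and 57.2 CPM in the deletion, against 56.9 and 53.3 CPM in wild type. These overlapped, while the DMSO libraries did not. Without adjustment, 5 members were higher (18.1% of all genes) and 2 were lower (19.2%) at a p under 0.05. The libraries of both strains did not overlap for MRPL1, MRPL23 and MRPL3, all higher in the deletion (11% of all genes), and for 0 lower members (9.17%). The call of MRPL15 was lost without either aTC library of the deletion, either DMSO library of the deletion or the first wild-type DMSO library (edgeR adjusted p 0.0524 to 0.126). DESeq2 called MRPL15 and MRPL3 higher and MRPL50 lower. With the length trend removed, edgeR called MRPL15 higher and MRPL50 and MRPL51 lower, and without the filter on low counts it called MRPL15 and MRPL3 higher. Without the second wild-type aTC library 5 members were called, MRPL15 and MRPL3 higher and MRPL17, MRPL24 and MRPL50 lower. Without the second aTC library of the deletion there were 2, MRPL3 higher and MRPL51 lower. These comparisons share libraries with one another and are set side by side here.

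The 19 members not named by the rule stayed between -0.30 and 0.05 for aTC in the deletion, where 17 were below 0. In wild type they stayed between 0.0072 and 0.095. With the construct off they lay between -0.05 and 0.16 in the deletion relative to wild type, and with it on between -0.25 and 0.07. By edgeR 0 of the 19 were called in these comparisons, and DESeq2 called MRP20 and MRPL27 lower for aTC in the deletion.

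Other parts of the mitochondrial translation machinery were read in the same fit. The small subunit (32 genes) had median log2 values of -0.08 for aTC in the deletion and 0.04 in wild type, and 0 of its genes were called by edgeR for aTC in either strain. Before adjustment, 7 of them were lower in the deletion (12.1% of all genes) and 2 higher in wild type (2.07% of all genes) at a p under 0.05. Between the deletion with aTC and wild type with aTC 3 of the 32 were called lower, against 8.13% of all genes. In that comparison MRP21 fell by 0.31 (SE 0.089), MRPS17 fell by 0.35 (SE 0.082) and MRPS28 fell by 0.24 (SE 0.067), with edgeR adjusted p-values of 0.0435, 0.0239 and 0.0409. MRPS17 had 40.6 and 42.96 CPM in the deletion with aTC, against 57.4 and 48.8 CPM in wild type with aTC, where the first wild-type library was again the highest. Of 7 large subunit proteins outside the rule, among them MNP1 and YML6, 0 were called by edgeR in any comparison. Their median for aTC in the deletion was -0.08, with 1 lower at an unadjusted p under 0.05.

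Of 13 genes for large subunit assembly, RNA modification and membrane tethering, 1 was called by edgeR for aTC in each strain, against 0.506% of all genes in the deletion and 0.371% in wild type. It was MRM1, which methylates the large mitochondrial ribosomal RNA. MRM1 had 59.0 and 61.8 CPM in the deletion with aTC, against 47.6 and 46.3 CPM in the deletion with DMSO. It had 59.0 and 59.0 CPM in wild type with aTC, against 42.7 and 42.4 CPM in wild type with DMSO. In neither strain did the groups overlap, and the log2 fold changes were 0.36 (SE 0.057, edgeR adjusted p 0.0175) in the deletion and 0.47 (SE 0.057, edgeR adjusted p 0.0026) in wild type. MRM2, which methylates the same RNA, was called higher in the deletion with aTC than in wild type with aTC, at 0.26 (SE 0.059, edgeR adjusted p 0.022). With DMSO, MRM2 was higher in the deletion too, at 38.1 and 37.7 CPM against 32.9 and 34.3 CPM in wild type.

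Of 16 genes for charging mitochondrial tRNAs, 0 were called by edgeR for aTC in either strain, and at an unadjusted p under 0.05 there were 0 as well. With the construct on, edgeR called 4 of them higher in the deletion than in wild type, against 5.5% of all genes. They were MSE1 at 0.24 (SE 0.064), PET112 at 0.24 (SE 0.069), MSK1 at 0.23 (SE 0.061) and MSM1 at 0.20 (SE 0.058), with edgeR adjusted p-values of 0.0342, 0.0437, 0.0335 and 0.0417. These enzymes charge tRNAs or, for PET112, act in correcting a mischarged one. With DMSO all 4 genes were higher in the deletion too, without overlap of libraries, so the difference was not limited to the aTC libraries. Group means with DMSO were 45.4 CPM in the deletion against 39.1 in wild type for MSE1, and 20.7 against 18.8 for PET112. They were 93.4 against 80.7 CPM for MSK1 and 53.8 against 48.3 CPM for MSM1. The 9 translation factors had a median of -0.10 for aTC in the deletion with 0 called by edgeR and 2 lower at an unadjusted p under 0.05. Of 3 genes for mitochondrial transcription and DNA packaging (median 0.025), 0 were called and 1 was higher before adjustment. Among 7 regulators 0 were called and 2 were lower before adjustment, and PUF3 itself was at -0.23 for aTC in the deletion (SE 0.052, edgeR adjusted p 0.0698) and at -0.11 in wild type (SE 0.052, edgeR adjusted p 0.997). Genes with the Puf3 motif outside both subunits (749 tested) had medians of -0.0033 for aTC in the deletion and 0.013 in wild type.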

How the data were processed

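Raw read counts per gene were deposited by the authors for 8 poly(A)-selected libraries of a directional kit, per the labels. Reads were aligned with STAR (version not given), per the submitters' processing notes. Per the file headers, unique alignments were counted over exons with featureCounts 2.0.1 with no strand option and no overlap option. A read in 2 overlapping genes is then dropped, and antisense reads cannot be told apart. The genome build is not given in the sources used here, so only R64 coordinates are printed, for sequences matched by gene identifier.

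Groups followed the labels. R 4.3.3 with edgeR 4.0.16 fitted all 8 libraries with 4 group means, TMM factors of 0.963 to 1.05 and 4 residual degrees of freedom. The expression filter kept 5932 genes and removed 731. The quasi-likelihood F test was adjusted by Benjamini-Hochberg over the 5932 genes, with 0.05 as the threshold for a call. The biological coefficient of variation was 5.44%. There were 7 comparisons. DESeq2 1.42.0 was an alternative. The edgeR step was tested on simulated counts. A count of 3 reads is 0.0484 to 0.0584 CPM, for counting error only.

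Members and lists were chosen with earlier results of these data known. A member was named if called in any comparison, among the 3 highest or lowest in a pairwise comparison or per length, among the 3 largest interactions, or overlapping or poorly counted. Members named in the account by role were added after their values were seen. Replicates are labelled biological. Replicates of a group correlated at 0.997 to 0.999 over genes.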

Additional observations from a re-analysis of the deposited data

How the results depend on the processing

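With 2 replicates per group and calls near the threshold, most counts of called members changed when a single library was left out. Such a fit keeps 1 library in that group and fewer residual degrees of freedom. A lost call can therefore reflect lower power as well as the library left out. Leaving out 1 library at a time, the counts ran from 0 to 6 for aTC in the deletion, 0 to 1 for aTC in wild type, 0 to 1 between strains in DMSO, 0 to 7 between strains in aTC, 0 to 3 for the difference of responses, 1 to 3 for aTC averaged and 0 to 5 for the strains averaged. The medians ran from -0.183 to -0.0736, 0.0039 to 0.12, 0.027 to 0.14, -0.12 to -0.08 and -0.26 to -0.13 for the first 5 of these, with no change of sign. DESeq2 called 5 members for aTC in the deletion, 1 between strains in DMSO, 4 between strains in aTC and 3 averaged. Fits of only the 2 groups compared called 7, 0, 1 and 0 in the 4 pairwise comparisons. Without RML2, or with only members that overlap no gene, 0 were called for aTC in the deletion, in wild type and averaged, since RML2 is the member left out. The strains averaged gave 2 without the filter and 3 with the length trend removed, and the strains in aTC gave 3 under each, with MRPL31 added. Scaled by library total alone, the summed level was 2310 CPM in the deletion with aTC and 2162 CPM in wild type with DMSO, and the deletion with aTC then lay above wild type with aTC, not below it. Deviations of same-numbered replicates correlated at -0.156 to 0.143 over genes. Over the members they correlated at 0.461 between the treatments in the deletion and at 0.404 in wild type. Across strains they correlated at -0.706 to -0.183 over the members. The replicate block is shared by both strains, so it cannot decide on pairing within a strain, which was not tested. With the replicate block 1 member (MRPL50) was called between strains in aTC, where MRPL17 had an edgeR adjusted p of 0.0583, and no other count of called members changed. Where a count moved otherwise, the cause was not tested.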
